A study of Mus musculus with 51 samples.

Results

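The genes described here are the enzymes that write, copy and remove DNA methylation, chosen by symbol as a fixed list of 8 (Dnmt1, Dnmt3a, Dnmt3b, Dnmt3l, Uhrf1, Tet1, Tet2 and Tet3) of the 24538 genes in each RNA-seq table. All 8 were found in all 9 tables. The study followed mouse ES cells as they were turned into mesodermal cells with Bmp4 (20 ng/ml), and 18 of its 51 samples were RNA-seq libraries. For WT cells of the F1G4 line there were ES cells, as aggregates that had not yet received Bmp4, and days 1, 2 and 3 of the Bmp4 culture. Eomes KO, T KO and Eomes/T double KO (dKO) cells, all with the F1G4 background, were measured on days 2 and 3. Smad4 KO cells and WT cells of the Smad4 line, a 129S/SvEvxC57BL/6 background with conditional Smad4 alleles, were measured on days 1 and 2. All groups other than the ES state received Bmp4. The ES cells had been maintained with serum and LIF, and the differentiation medium that carried Bmp4 lists neither. No RNA-seq group was in that medium without Bmp4, so changes from ES cells due to Bmp4 and to the medium cannot be told apart. The Eomes and T lines lost promoter and first-exon sequence through paired Cas9 nickases and each line is a picked clone. The dKO line was made from Eomes KO cells. The Smad4 KO was made with Cre, after which single clones were expanded and screened for homozygous loss. Each table gave a single pooled FPKM (fragments scaled to transcript length and to the number of mapped fragments) per gene and condition, 14 distinct conditions in all. The values below therefore carry no SD and no p-value, and a difference between conditions could not be set against the spread between replicates.

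Methylation of cytosine in CpG dinucleotides is copied after DNA replication by DNMT1, which is brought to the new strand by UHRF1, a protein that binds hemimethylated CpG. New methylation is placed by DNMT3A and DNMT3B, and DNMT3L, which has no catalytic activity of its own, binds and stimulates both. The TET enzymes oxidise methylcytosine, after which it can be lost by dilution or by base excision repair. Naive ES cells are known for high Tet1 and Tet2, and the embryo gains methylation broadly as the epiblast leaves the naive state and enters gastrulation.

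The start regions of the members are shown because they differ in CpG content and because the maintenance pair carries a motif that few promoters hold. RefSeq promoter windows of the 250 bases before a start (GRCm38.p6, 15 windows for all 8 members, of 32851 windows in all) were searched on both strands for the E2F octamers TTTGGCGC, TTTCGCGC and TTTCCCGC, the Sp1 box GGGCGG, the T-box half-site TCACACC and the Smad site GTCTAGAC. An E2F octamer was found in 2 member windows, 1 of the 3 of Dnmt1 and 1 of the 2 of Uhrf1, and in 1.53% of all windows. These 2 windows held 26 and 30 CpG, where the median of all windows was 6. The share among windows as rich in CpG was not computed. In both the letters were TTTCGCGC or their reverse complement, which 0.256% of all windows held. The stretches of 30 bases around them are given 5′ to 3′ along the gene's strand with the octamer in capitals. That of Dnmt1 (chr9:20952824-20952853, minus strand) begins its octamer 219 bases before a start at 20952623, and that of Uhrf1 (chr17:56304117-56304146, plus strand) 185 bases before the start at 56304313. Both starts lie inside the annotated genes, which begin at 20959888 for Dnmt1 and 56303321 for Uhrf1. The Dnmt1 window before 20959888 held 2 CpG and no octamer. The Uhrf1 window before a start at 56303337 held 10 CpG and no octamer.
Dnmt1: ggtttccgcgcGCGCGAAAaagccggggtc
Uhrf1: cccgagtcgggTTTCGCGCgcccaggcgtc

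The number of CpG dinucleotides per window was 6 at the median of all windows, 51 in Tet2, between 15 and 40 in Dnmt3a, between 10 and 30 in Uhrf1, between 2 and 26 in Dnmt1, 21 in Dnmt3b, 17 in Tet3, 15 in Tet1 and between 3 and 5 in the 3 windows of Dnmt3l. The 2 de novo windows below show this contrast, with the Sp1 boxes (or their reverse complement) in capitals. The Dnmt3a window (chr12:3806730-3806979, plus strand) held 38 CpG and 5 boxes, and the Dnmt3l window (chr10:78049592-78049841, plus strand) held 4 CpG and 2 boxes. The starts of both windows lie inside the annotated genes. The Sp1 box was present in 11 of the 15 member windows and in 32.7% of all windows. The T-box half-site (3.33% of all windows) and the Smad site (0.167%) were in none of the 15 member windows, which says only that these letters are not in these windows.
Dnmt3a: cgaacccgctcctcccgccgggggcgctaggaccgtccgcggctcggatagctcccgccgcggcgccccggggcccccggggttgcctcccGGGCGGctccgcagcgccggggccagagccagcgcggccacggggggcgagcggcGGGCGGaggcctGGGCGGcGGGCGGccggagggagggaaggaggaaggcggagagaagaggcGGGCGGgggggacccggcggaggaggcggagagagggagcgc
Dnmt3l: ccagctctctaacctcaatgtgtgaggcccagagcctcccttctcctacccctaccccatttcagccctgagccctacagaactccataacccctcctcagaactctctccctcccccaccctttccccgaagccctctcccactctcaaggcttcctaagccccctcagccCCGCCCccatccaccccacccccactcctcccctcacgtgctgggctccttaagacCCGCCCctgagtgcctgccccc

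Marker genes were read as a check of the labels. Pou5f1, a pluripotency factor, was between 253 and 1000 FPKM in all 14 conditions, the summed level of 5 nascent mesoderm markers went from 1.31 FPKM in ES cells to 416 on day 3, and the 7 feeder fibroblast markers summed to between 0.6 and 5.36. Eomes was 0.276 FPKM in the Eomes KO on day 3 against 19.4 in WT, and T was 3.0 in the T KO against 320 in WT on that day. On day 2 the targeted RNA was less reduced, with Eomes at 2.42 against 9.5 and T at 6.64 against 43.5. The Smad4 transcript was 46.8 FPKM in the Smad4 KO on day 2 against 39.3 in its WT, so Smad4 FPKM does not check that label. The 6 conditions of the Eomes, T and dKO lines had summed levels of 4 Y-linked genes between 0.0906 and 0.336 FPKM, against 16.9 to 24.8 in F1G4 WT, so a difference of these lines from WT cannot be told apart from a difference between clones. The day 3 Eomes KO and the day 2 T KO stood apart from the other KO conditions, with robust SDs of the log2 ratio to WT of 0.50 and 0.52 against 0.19 to 0.41 elsewhere, and with the lowest FPKM sums over all genes (401510 and 439751, against 453655 to 608585). In bulk RNA, fewer cells that express a gene and less RNA per cell cannot be told apart.

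Over the WT time course the maintenance pair stayed high while the de novo and TET genes were redistributed, with Dnmt3l, Tet1 and Tet2 losing most of their RNA and Dnmt3b and Dnmt3a passing through a peak on day 1. Calls follow the authors' rule, which examines a gene with FPKM above 1 in at least 1 of the 2 conditions and calls it when the log2 ratio is above 1 or below -1, without a pseudocount. From ES cells to day 3, 6 of the 8 members were called, where 31.1% of 11556 genes examined were called. Of the 6, 5 were lower, where 12.6% of genes were called lower, and Tet3 was higher. The median log2 ratio of the members was -1.33 and that of all genes examined -0.02. By step, 4 of 8 members were called from ES to day 1 (13.5% of genes examined), 4 of 8 from day 1 to day 2, all lower (11.3% of genes called, 4.13% lower), and 1 of 8 from day 2 to day 3, also lower (10.2% of genes called, 4.06% lower).

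**Figure D1:**
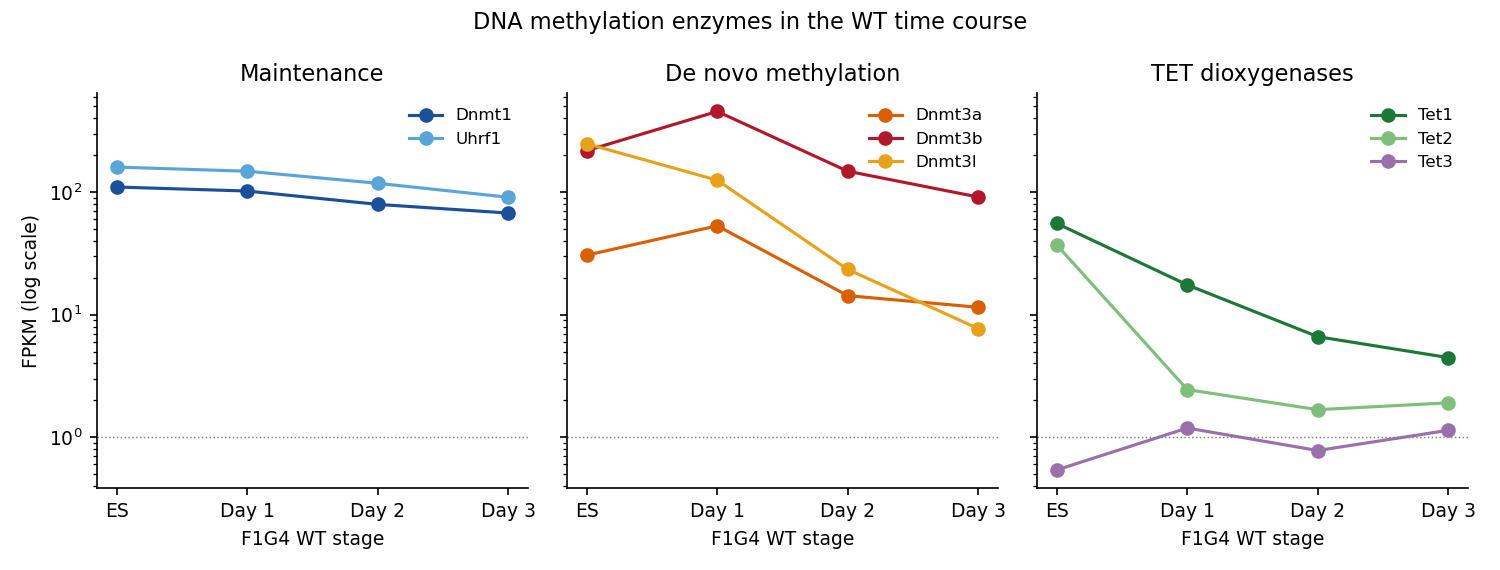
FPKM (log axis) of the 8 members in WT cells of the F1G4 line, from ES cells to day 3, by role. Each point is 1 pooled value and the dotted line marks 1 FPKM. Dnmt1 and Uhrf1 stay between 67.5 and 160 FPKM, Dnmt3b peaks at 455 on day 1, Dnmt3l goes from 248 to 7.71 and Tet2 from 37.0 to 1.91.

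Among the maintenance genes, Dnmt1 was 110 FPKM in ES cells and 102, 79.4 and 67.5 on days 1 to 3. Uhrf1 was 160, 148, 118 and 90.8 FPKM at the same stages. Both were lower at each later stage, by log2 ratios that never reached the threshold (-0.71 for Dnmt1 and -0.81 for Uhrf1 over the whole course). Uhrf1 was 1.45 times Dnmt1 in ES cells and 1.35 times on day 3, so that their ratio moved less than either level. Of 17 S-phase and proliferation genes, 1 was called from ES to day 3, Ccne1, the E-type cyclin (-2.17), where 31.1% of all genes were called, and the median log2 ratio of the list was -0.40. The part of proliferation in the lower maintenance levels was not tested.

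Of the de novo methyltransferases, Dnmt3b was the higher at every stage. It was 218 FPKM in ES cells and 455, 148 and 91.2 on days 1 to 3, and Dnmt3a was 30.6, 53.1, 14.3 and 11.5 FPKM. Dnmt3b was called higher on day 1 (log2 ratio 1.06), with Dnmt3a at 0.80, short of the threshold. Both then fell from day 1 to day 2, Dnmt3a by 1.90 and Dnmt3b by 1.62 on the log2 scale, ratios as low or lower in 1.41% and 1.92% of the genes examined. The sum of both enzymes was 248 FPKM in ES cells and 508, 162 and 103 on days 1 to 3, and Dnmt3b made up between 87.7% and 91.2% of it.

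Dnmt3l, the stimulating partner, followed another course. It was 248 FPKM in ES cells, as much RNA as both enzymes together (99.8% of their sum), then 125, 23.4 and 7.71 on days 1 to 3. The first step missed the threshold (log2 ratio -0.98), and the next steps were -2.42 and -1.60. Over the course the log2 ratio was -5.00, the lowest among the members and as low or lower in 0.724% of genes examined. Dnmt3l was 24.6% of the summed Dnmt3a and Dnmt3b level on day 1, 14.4% on day 2 and 7.51% on day 3. On day 1, when the enzymes peaked, their partner was already at 50.5% of its ES level. Aire, which overlaps Dnmt3l on the other strand, was at most 1.21 FPKM in any condition.

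The TET genes lost their RNA in a different order. Tet2 fell at once, from 37.0 FPKM in ES cells to 2.45, 1.68 and 1.91 on days 1 to 3. Its log2 ratio on day 1 was -3.92, as low or lower in 0.29% of genes examined. Tet1 went down in steps, at 55.5 FPKM in ES cells and then 17.5, 6.62 and 4.47, with log2 ratios of -1.67, -1.40 and -0.57, the last of them not called. Tet3 was near the floor of the examined range throughout, at 0.542, 1.19, 0.780 and 1.14 FPKM. Its call as higher on day 1 (log2 ratio 1.14) was lost with a pseudocount of 1 (0.51), and its call over the whole course (1.07) was lost with a pseudocount of 0.1 (0.95). The 3 genes summed to 93.1 FPKM in ES cells and 21.1, 9.08 and 7.51 on days 1 to 3, of which Tet1 gave 59.6% and Tet2 39.8% in ES cells, and Tet1 82.8% and Tet2 11.6% on day 1. Tet3 went from 0.583% to 15.2% of the sum as the others declined.

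The changes in the members on day 1 came with lower naive pluripotency RNA. All 8 genes of a naive list, Klf4 and Esrrb among them, were called lower on day 1 (median log2 ratio -3.43), and 5 of 6 formative and primed genes were called higher (median 1.45), including Fgf5 and Pou3f1. Nanog was the exception to a lasting loss, at 148 FPKM in ES cells, 16.1 on day 1 and 120 on day 2. The part of this change of state in the members' values was not tested.

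Loss of Smad4, the shared partner of the receptor-activated Smads, was measured in its own line on days 1 and 2. Dnmt3l was lower in the KO on both days, and Dnmt3b was the member furthest above WT on both. Of the 7 members examined on day 1, 1 was called (4.77% of 11232 genes examined), and of 8 on day 2, 1 (5.77% of 10999). Both calls were Dnmt3l. On day 1 it was 132 FPKM in WT against 64.8 in KO cells, and on day 2 it was 21.9 against 4.59. The log2 ratios were -1.03 and -2.25, as low or lower in 2.17% and 0.883% of genes examined. The first was lost, at -0.97, when values were rescaled to a common sum.

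Dnmt3b was 242 FPKM in WT against 367 in Smad4 KO cells on day 1, and 268 against 467 on day 2. The log2 ratios of 0.60 and 0.80 stayed below the threshold, and 6.09% and 3.90% of genes examined were as high or higher. The level of 467 FPKM was the highest of Dnmt3b in any of the 14 conditions. Dnmt3a was 16.0 in WT against 21.2 in KO cells on day 1, and 16.8 and 22.1 on day 2 (log2 ratios 0.41 and 0.40). With the enzymes at or above WT and the partner below it, Dnmt3l was 0.937% of the Dnmt3a and Dnmt3b sum in Smad4 KO cells on day 2 and 7.67% in their WT, against 16.7% and 51.3% on day 1.

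The other members were not called in the Smad4 KO. Dnmt1 was 65.8 in WT against 67.3 FPKM in KO cells on day 1, and 85.6 and 81.8 on day 2. Uhrf1 was 103 and 97.4 on day 1, and 104 and 86.8 on day 2. Tet1 was 7.97 and 9.07 on day 1, and 8.70 and 7.41 on day 2. Tet2 was at 1.55 and 1.35 on day 1, and 1.34 and 1.36 on day 2, the lowest Tet2 levels of the 14 conditions. Tet3 was 0.937 and 0.743 on day 1, too low to be examined, and 0.792 and 1.22 on day 2 (log2 ratio 0.62, with 6.11% of genes as high or higher). These 5 genes had log2 ratios between -0.34 and 0.62. Formative genes were called higher in the same KO cells (5 of 6 on day 1 and 3 of 6 on day 2) and naive genes lower (2 and 4 called). Nascent mesoderm markers summed to 72.4 FPKM in WT against 2.83 in KO cells on day 2. Their part in the Dnmt3b and Dnmt3l values was not tested. The Smad4 KO was also obtained through single clones, so its differences from WT cannot be told apart from a difference between clones.

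**Figure D2:**
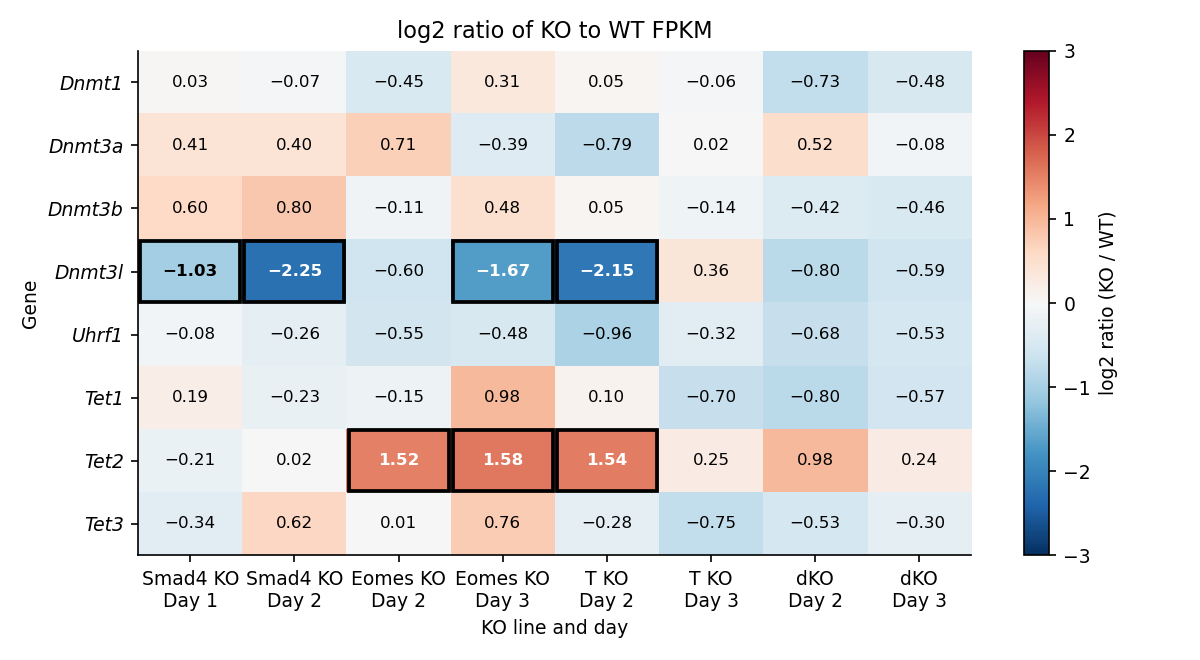
Log2 ratio of KO to WT FPKM for the 8 members (vertical) in the 8 KO comparisons (horizontal), each within a single table, with boxes around ratios called by the 2-fold rule. Dnmt3l is boxed 4 times, always lower, and Tet2 3 times, always higher; the other 6 members have no box.

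Across the 8 KO comparisons, 7 of the 64 member ratios were called, 4 lower and all in Dnmt3l, and 3 higher and all in Tet2. The other 57 were within 1 on the log2 scale. Over these comparisons the share of all genes examined that were called ran from 4.77% to 16.4%. The count of 7 is thus no result about the members as a list. Eomes and T (Brachyury) are T-box transcription factors of the primitive streak. In the Eomes KO, 1 of 7 members examined was called on day 2 (7.52% of 11226 genes) and 2 of 8 on day 3 (16.4% of 11629). In the T KO, 2 of 7 were called on day 2 (15.6% of 11359) and 0 of 8 on day 3 (6.04% of 11239). In the dKO, 0 of 7 were called on day 2 (7.99% of 11195) and 0 of 8 on day 3 (11.0% of 11473). The day 2 count of the dKO was 4 after rescaling to a common FPKM sum and 1, Tet2 (1.26), after centring by transcript length. The Eomes KO, T KO and dKO comparisons of a day use the same WT samples, so their ratios are not independent of each other. Cell-state markers differed in the same cells. The 5 nascent mesoderm markers, which include Eomes and T, summed on day 2 to 67.8 FPKM in WT, 27.6 in the Eomes KO, 38.9 in the T KO and 7.76 in the dKO, and on day 3 to 416, 6.0, 24.7 and 12.9. Sox1, a neural marker, was 0.202 FPKM in WT on day 2 and 7.17, 4.01 and 5.17 in the 3 lines, and 0.192 on day 3 against 5.75, 0.914 and 6.49. Their part in the members' values was not tested.

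Tet2 was the member above WT in all 6 of these comparisons. It was 1.68 FPKM in F1G4 WT cells on day 2, against 4.79 in the Eomes KO, 5.05 in the T KO and 3.29 in the dKO. On day 3 it was 1.91 in WT, 5.97 in the Eomes KO, 2.29 in the T KO and 2.33 in the dKO. The log2 ratios were 1.52 (Eomes KO, day 2), 1.58 (Eomes KO, day 3) and 1.54 (T KO, day 2), with 1.62%, 2.35% and 1.67% of genes examined as high or higher. The dKO on day 2 was just short of the threshold at 0.98, and the day 3 values of the T KO and dKO were 0.25 and 0.24. All these levels remained well below the 37.0 FPKM of ES cells. Tet2 was at low levels in these cells, and its call in the Eomes KO on day 2 was lost when 5 FPKM was required in 1 condition.

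Dnmt3l was below WT in 5 of the 6. On day 2 it was 23.4 FPKM in WT, 15.3 in the Eomes KO, 5.41 in the T KO and 13.3 in the dKO, with log2 ratios of -0.60, -2.15 and -0.80. On day 3 it was 7.71 in WT, 2.54 in the Eomes KO, 10.0 in the T KO and 5.32 in the dKO, with log2 ratios of -1.67, 0.36 and -0.59. The called values were those of the T KO on day 2 and the Eomes KO on day 3, and the level of 2.54 FPKM was the lowest of Dnmt3l in any condition. These were the 2 conditions that stood apart over all genes, and both also had called, lower levels of Tdg, the thymine DNA glycosylase, and of Lig1, DNA ligase I (log2 ratios of -1.82 and -1.80 in the T KO on day 2, and -1.58 and -1.53 in the Eomes KO on day 3). The part of these conditions' wider spread in the Dnmt3l and Tet2 values was not tested.

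**Figure D3:**
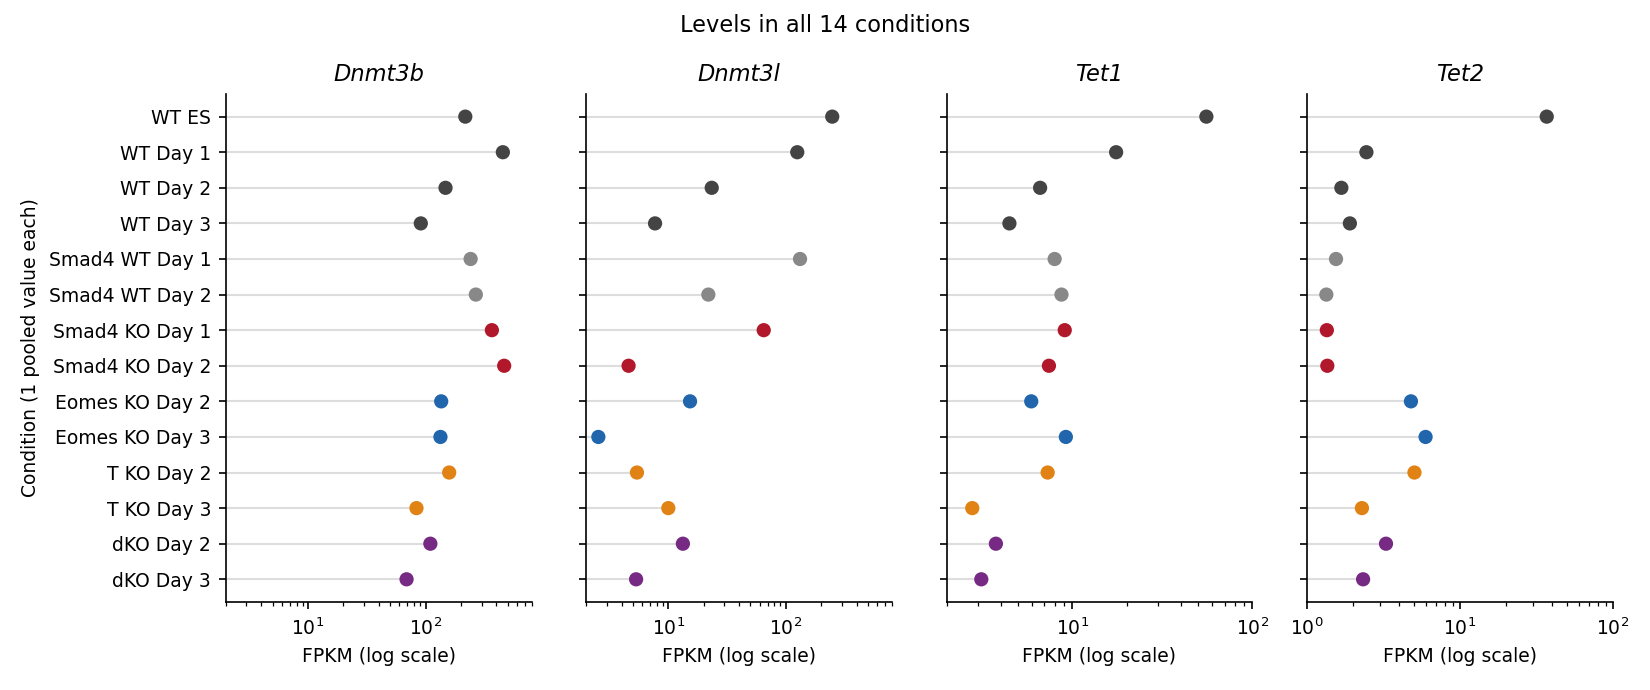
FPKM (log axes, with ranges that differ between panels) of Dnmt3b, Dnmt3l, Tet1 and Tet2 in the 14 conditions, 1 pooled value each, coloured by line. Dnmt3l spans 2.54 to 248 FPKM, and Tet2 is between 2.29 and 5.97 FPKM in the 6 conditions of the Eomes, T and dKO lines and between 1.34 and 2.45 in all WT and Smad4 KO conditions other than ES cells.

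Uhrf1 was below WT in all 8 KO comparisons without a call. On day 2 it was 118 FPKM in WT, 79.8 in the Eomes KO, 62.9 in the T KO and 72.8 in the dKO, and on day 3 it was 90.8 in WT, 68.0 in the Eomes KO, 73.7 in the T KO and 65.2 in the dKO. The log2 ratios ran from -0.96 (T KO, day 2) to -0.32 (T KO, day 3) in these lines. Dnmt1 on day 2 was 79.4 in WT, 57.8 in the Eomes KO, 84.8 in the T KO and 47.3 in the dKO, and on day 3 it was 67.5 in WT, 87.2 in the Eomes KO, 65.3 in the T KO and 50.4 in the dKO. Dnmt1 log2 ratios ran from -0.73 to 0.31. Uhrf1 was above Dnmt1 in 12 of the 14 conditions, and below it in the T KO on day 2 (a Uhrf1 to Dnmt1 ratio of 0.741) and in the Eomes KO on day 3 (0.78). Both are the conditions that stood apart over all genes. In the dKO on day 2 the ratios depended on scaling, as FPKM summed over all genes to 608585 there. Rescaled to a common sum, Dnmt1 (-1.14), Uhrf1 (-1.09), Dnmt3l (-1.21) and Tet1 (-1.21) were all called lower. Centred by transcript length they were -0.62, -0.70, -0.97 and -0.52, with none called. Among genes above 5 FPKM in both conditions the median log2 ratio was 0.07 before rescaling. Their ratios were lower for longer transcripts (Spearman's rho -0.44).

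The remaining members were not called in any KO without rescaling or centring. Dnmt3a on day 2 was 14.3 FPKM in WT, 23.2 in the Eomes KO, 8.50 in the T KO and 20.2 in the dKO, with log2 ratios of 0.71, -0.79 and 0.52. On day 3 it was 11.5 in WT, 9.16 in the Eomes KO, 11.7 in the T KO and 11.3 in the dKO. Dnmt3b on day 2 was 148 in WT, 136 in the Eomes KO, 159 in the T KO and 110 in the dKO, and on day 3 it was 91.2 in WT, 134 in the Eomes KO, 83.8 in the T KO and 69.0 in the dKO. The ratio of Dnmt3b to Dnmt3a was 10.4 in WT on day 2, 5.89 in the Eomes KO, 18.7 in the T KO and 5.42 in the dKO. On day 3 it was 7.95 in WT, 14.6 in the Eomes KO, 7.14 in the T KO and 6.12 in the dKO, so both single KOs were on the other side of WT from day 2. The ratios above WT, 18.7 and 14.6, were those of the 2 conditions that stood apart over all genes. The part of those conditions' wider spread in this difference between days was not tested.

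Tet1 on day 2 was 6.62 FPKM in WT, 5.91 in the Eomes KO, 7.29 in the T KO and 3.76 in the dKO, and on day 3 it was 4.47 in WT, 9.20 in the Eomes KO, 2.78 in the T KO and 3.12 in the dKO. The Eomes KO on day 3 was just short of the threshold (log2 ratio 0.98) and passed it after rescaling to a common sum (1.26) or centring on the median gene (1.10). Tet3 stayed between 0.534 and 2.01 FPKM, the highest being the Eomes KO on day 3, where its log2 ratio of 0.76 passed the threshold after rescaling (1.04). The summed TET level on day 2 was 9.08 FPKM in WT, 11.5 in the Eomes KO, 13.0 in the T KO and 7.58 in the dKO. On day 3 it was 7.51 FPKM in WT, 17.2 in the Eomes KO, 5.75 in the T KO and 6.42 in the dKO.

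WT cells of the Smad4 line and F1G4 WT cells, neither carrying a KO, were compared as a measure of how far the members move between lines. On day 1, 2 of 8 members were called, both lower in the Smad4 line (10.8% of 11194 genes examined), and on day 2 0 of 7 (5.15% of 11135). Dnmt3a was 53.1 FPKM in F1G4 and 16.0 in the Smad4 line on day 1 (log2 ratio -1.73), and 14.3 and 16.8 on day 2 (0.24). Tet1 was 17.5 and 7.97 on day 1 (-1.13, a call lost at -0.81 with centring by transcript length), and 6.62 and 8.70 on day 2 (0.40). Dnmt3b was 455 and 242 on day 1 and 148 and 268 on day 2, with log2 ratios of -0.91 and 0.86. Dnmt3l, in contrast, was 125 and 132 FPKM on day 1 and 23.4 and 21.9 on day 2. Thus Dnmt3a and Dnmt3b were not lower on day 2 than on day 1 in the Smad4 line, whose values for Dnmt3a were 16.0 and 16.8 and for Dnmt3b 242 and 268, while Dnmt3l was. Days 1 and 2 of that line come from tables normalized separately. The log2 ratios of Dnmt1, Uhrf1, Tet2 and Tet3 between the lines ran from -0.66 to 0.11. Formative genes also differed between the lines on day 1, with 4 of 6 called lower in the Smad4 line, and their part in the Dnmt3a and Tet1 values was not tested.

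Over all 14 conditions the members fell into an order of spread. The highest level was 2.33 times the lowest for Dnmt1 and 2.54 times for Uhrf1, 3.76 for Tet3, 6.24 for Dnmt3a, 6.77 for Dnmt3b, 20.0 for Tet1, 27.6 for Tet2 and 97.4 for Dnmt3l. ES cells gave the highest level of Dnmt1, Dnmt3l, Uhrf1, Tet1 and Tet2. By median level over the conditions the order was Dnmt3b (153 FPKM), Uhrf1 (88.8), Dnmt1 (73.4), Dnmt3a (16.4), Dnmt3l (14.3), Tet1 (7.35), Tet2 (2.31) and Tet3 (0.786). The ranges over the conditions crossed in every neighbouring pair of this order, so none of these neighbours is separated by its range.

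The genes whose log2(FPKM + 0.1) most resembled each member over the 14 conditions are named by Pearson's r among 10871 genes, as a description only, since the conditions share lines, days and tables. Dnmt1 was most like Kdm5c (0.973), Atg2b and Espl1, and Uhrf1 most like Hsp90aa1 (0.969), Smoc1 and Suz12, a Polycomb repressive complex subunit. Dnmt3a was most like Cbx1 (0.93), a heterochromatin protein, Hells (0.921), a chromatin remodeller needed for DNA methylation, and Mtdh. Dnmt3b was most like Ccdc40 (0.929), Tex9 and Phf6. Dnmt3l was most like Liph (0.937), Mylpf and Dppa3 (0.933), a germ cell and early embryo factor that binds UHRF1. Tet1 was most like Eif2ak1 (0.965), Bicral and Mga. Tet2 was most like Cep55 (0.935), Zfp57 (0.933), which guards imprints, and Znrd1, and these had ranks of 102, 244 and 178 without the ES condition, so the Tet2 likeness rests on ES cells. Tet3 did not pass the filter of FPKM above 1 in at least 7 conditions.

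The 64 other genes of the pathway, in 5 lists, were called less uniformly. From ES to day 3, 18 of the 61 examined were lower and 8 higher (median log2 ratio -0.55), where 31.1% of all genes examined were called and 12.6% called lower. Against that background the counts of the maintenance partners, readers and methyl donor genes below are too close to it, or too few, to set those lists apart. The list for targeting and imprint protection had 8 of 13 lower and 0 higher, led by Dppa2 (-6.75) and Dppa4 (-3.96), partner chromatin factors of pluripotent cells, and Dppa3 (-3.76). Of the maintenance partners 2 of 9 were lower, Hells (-1.60) and the deubiquitinase Usp7 (-1.29), while the UHRF1 relative Uhrf2 was higher (1.78). Of 20 demethylation and base excision repair genes examined, 4 were lower, with Gadd45a at -2.50, and 5 higher, with Gadd45b at 2.36 and the glycosylase Neil3 at 2.13. Of 6 readers examined, 1 was lower, Mbd3 (-1.06). Of 13 methyl donor genes, 3 were lower, with the threonine dehydrogenase Tdh at -6.13, and 2 higher, with the serine synthesis enzyme Phgdh at 1.38.

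**Figure D4:**
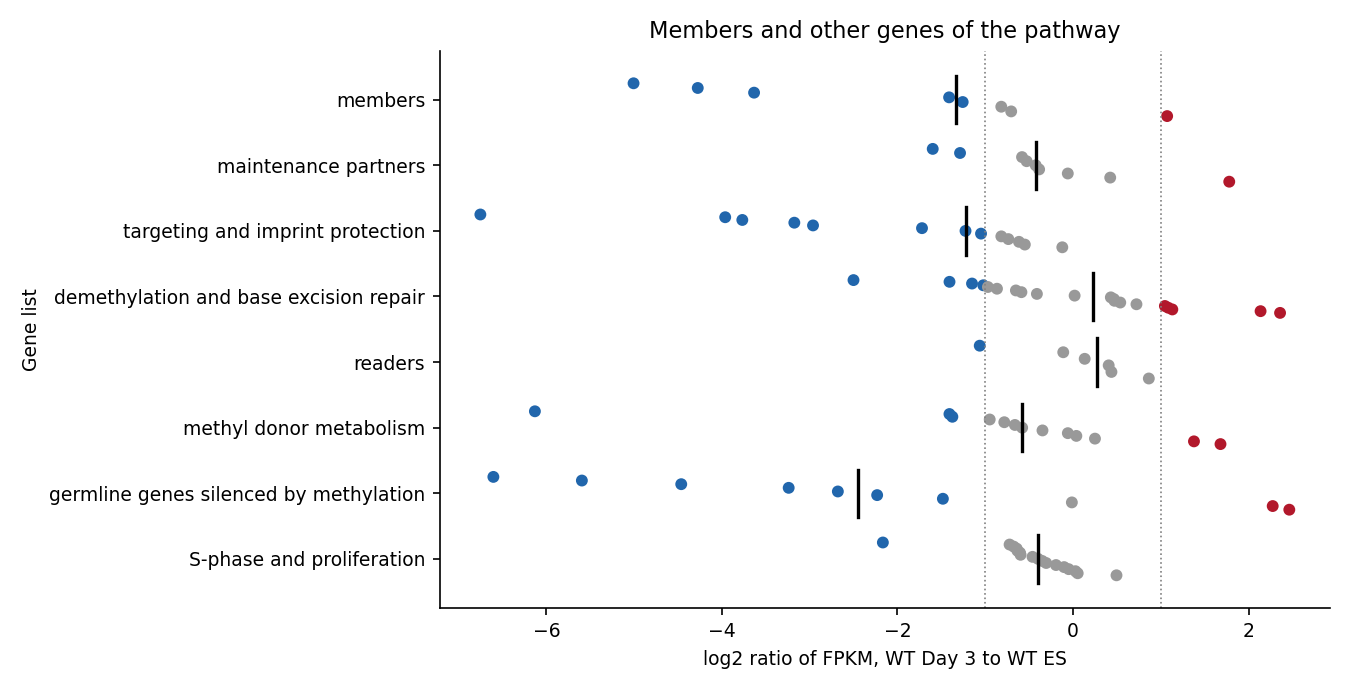
Log2 ratio of FPKM on day 3 to ES cells in F1G4 WT (horizontal) for the members and the other gene lists (vertical). Each point is a gene with FPKM above 1 in 1 condition and above 0 in both, blue below -1 and red above 1, and black bars are medians; the members' median is -1.33.

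In each KO comparison between 0 and 8 pathway genes were called, in no case a higher share than that of all genes examined, so these counts are no result about the lists. In the Smad4 KO none of 59 genes examined was called on day 1 and 3 of 60 on day 2, all lower, Dppa3 (-2.74), Tdh (-2.13) and Dppa2 (-1.79), beside Dnmt3l at -2.25. In the Eomes KO none of 60 was called on day 2, and 4 of 59 were lower and 4 higher on day 3, with Ogt, the GlcNAc transferase that binds TET proteins, higher (1.20). In the T KO 7 of 60 were lower and none higher on day 2, with Mbd3 at -1.94, and 2 of 59 were higher on day 3. In the dKO 1 was lower and 1 higher of 60 on day 2, and 3 were lower and 3 higher of 60 on day 3, with Uhrf2 at -1.55. Between the WT lines, 2 were lower and 3 higher of 59 on day 1 and 1 was lower of 59 on day 2, with Dppa3 higher in the Smad4 line on day 1 (1.27).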

How the data were processed

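RNA-seq of 18 samples was used, and the ATAC-seq and ChIP-seq samples of the study were not used here. The deposited values are FPKM, made by the authors from strand-specific paired-end total RNA libraries with cutadapt 2.9, HISAT2 2.1.0 and Cuffdiff 2.2.1 on mm10 (GRCm38) with the refSeq annotation. Each of the 9 tables (the WT time course and 8 KO comparisons) holds 1 FPKM per gene and condition, 20 columns in all and 14 distinct ones. By their labels an F1G4 WT stage had 2 samples, and a KO line or Smad4 line WT 1 sample per day, while the study's legends call such values averages of 2 replicates, so how many samples a KO column pools is unclear. Read counts and depth are not known from these values, so no SD, interval or test was computed. Where nothing says that samples came from separate cultures, their spread may be technical.

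From the FPKM, log2 ratios were taken within a table, and across tables only between the WT lines. WT levels of F1G4 cells are those of the time course. For genes above 5 FPKM in both, the WT columns of the KO tables were a median of 0.9893 to 1.045 times these levels. Single genes lay between 0.1084 and 1.055 times. Of the gene names, 26 differed between the time course and the KO tables, and genes were matched by their order. Genes with FPKM above 1 in at least 1 condition were called at a log2 ratio above 1 or below -1. Percentages of genes as low or as high cover the genes examined that have a finite log2 ratio. Genes absent in 1 condition are left out of them but kept in the counts of genes called. A gene list is described by its counts and median. Likeness is Pearson's r of log2(FPKM + 0.1). Alternatives were a pseudocount of 0.1 or 1, no FPKM minimum or a minimum of 5, rescaling to a common FPKM sum (TPM), centring on the median gene, centring within 10 groups of transcript length (chosen after seeing the data), the WT columns of the Eomes KO tables, Spearman's rho, and likeness without the ES condition (chosen after seeing the data). Named genes were the 8 members, the targeted genes, the 3 genes most like each member and, from each list, at most the 3 highest and 3 lowest called genes with FPKM of at least 5. Aire, Pou5f1 and the marker lists were used for checks. The members, lists and rules were chosen with earlier results of these data known. The calling step was tested on simulated data. Python 3.11.15, pandas 2.3.3, numpy 2.4.6 and matplotlib 3.10.9 were used. Promoter sequences are from RefSeq.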

Additional observations from a re-analysis of the deposited data

Results flagged for a closer look

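The log2 ratio of Dnmt3l in T KO against WT was on opposite sides of 0 on the days compared, -2.15 on day 2 (5.41 against 24.0 FPKM) and 0.36 on day 3 (10.0 against 7.79 FPKM). The T KO on day 2 was 1 of the 2 conditions that stood apart over all genes. Between the WT cells of the Smad4 line and F1G4, Dnmt3a was at -1.73 on day 1 and 0.24 on day 2, and Tet1 at -1.13 on day 1 and 0.40 on day 2. These values stood out because the effect of the same contrast changed side between days with a call on 1 of them. The Tet1 call was lost with centring by transcript length (-0.81). With 1 pooled value per condition the difference between the days was not tested in any of these cases.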

How the results depend on the processing

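No paired analysis was possible because the tables hold 1 pooled column per condition, and for the same reason leaving out a replicate was not run. Of the 112 member log2 ratios, centring on the median gene and a pseudocount of 0.1 moved none by more than the yardstick of 0.27. This yardstick is the robust SD between the WT lines on day 2. The FPKM minimums change only which genes are examined, so they could not move a ratio. Rescaling to a common sum moved 16, a pseudocount of 1 moved 16 and length centring moved 10. Under the rescaling and both centrings, signs changed only where the ratio was within 0.10 of 0. Rescaling shifted all log2 ratios by -0.41 in the dKO on day 2, 0.28 and -0.22 in the Eomes KO on days 3 and 2, 0.13 from ES to day 3 and 0.12 in the T KO on day 2, and by -0.11 in the dKO on day 3 and between the WT lines on day 1. With it, the members called were 0 in the Smad4 KO on day 1, 4 in the Eomes KO on day 3 and 4 in the dKO on day 2, with medians of 0.68 and -1.01 in the latter 2 (0.40 and -0.61 as reported), and pathway genes called were 4 in the Eomes KO and 5 in the dKO on day 2. With length centring, members called were 0 in the Smad4 KO on day 1 and 1 each in the dKO on day 2 (Tet2, 1.26) and between the WT lines on day 1 (Tet1 lost, -0.81), and pathway genes called were 2 in the Eomes KO and 4 in the dKO on day 2. With a minimum of 5 FPKM, 0 members were called in the Eomes KO on day 2, and pathway genes called were 6 from ES to day 1, 5 in the Eomes KO on day 3, 0 in the T KO on day 3, 1 in the dKO on day 2 and 3 in the dKO on day 3, since fewer genes were examined. With no minimum, pathway genes called were 1 in the Smad4 KO on day 1, 1 in the Eomes KO and 4 in the dKO on day 2, and 8 and 3 between the WT lines on days 1 and 2. With a pseudocount of 1, which shrinks ratios of low genes, they were 5 in the Eomes KO on day 3, 1 in the T KO on day 3, 1 in the dKO on day 2 and 3 between the WT lines on day 1. By Spearman's rho, none of the 3 genes named as most like Dnmt3a or Dnmt3l stayed among the 10 most like it, and 1 of 3 did for Tet2. Other causes were not tested. Depth and replicate spread are unknown, so a ratio near the threshold, such as those of Dnmt3l in the Smad4 KO on day 1 or Tet2 in the dKO on day 2, cannot be told apart from one on its other side.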

Other observations

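Germline genes known to be silenced by promoter methylation were followed as RNA only, since methylation was not measured. Of 11 of the 14 listed genes that could be examined from day 2 to day 3 in F1G4 WT cells, 8 were called lower and 2 higher, with a median log2 ratio of -1.63, where 10.2% of all genes were called and 4.06% called lower. Sycp3, a synaptonemal complex protein, went from 32.5 to 10.9 FPKM and Ddx4, a germ cell helicase, from 9.72 to 3.90, while the X-linked homeobox genes Rhox6 (29.2 to 101 FPKM) and Rhox9 (12.9 to 38.0 FPKM) were the 2 higher. Of the 8 lower calls, only Sycp3 and Ddx4 reached 5 FPKM on either day. The ratios of the others, taken without a pseudocount, rest on low levels, which also bears on the median. In the Eomes KO on day 2, 3 of 11 were lower and 4 higher (7.52% of all genes called), in the dKO 2 lower and 4 higher of 11 (7.99%), and in the T KO 3 lower and 0 higher of 11 (15.6%). In the Eomes KO, Hormad1, a meiotic chromosome protein, was 9.11 FPKM against 2.36 in WT, Mael, a piRNA pathway factor, was 10.7 against 3.31, and Rhox6 was 3.88 against 28.9. The dKO on day 2 gave 9.98 FPKM for Hormad1, 8.91 for Mael and 13.1 for Rhox6. On day 3 Rhox6 was not below WT, at 101 FPKM in WT, 140 in the Eomes KO, 189 in the T KO and 106 in the dKO. The list counts on day 3 were 1 lower and 1 higher of 8 in the Eomes KO (16.4% of all genes called). They were 0 lower and 2 higher of 6 in the T KO (6.04%), and 0 lower and 3 higher of 9 in the dKO (11.0%). The KO comparisons of a day use the same WT samples. Between the 2 WT lines, neither carrying a KO, 3 were lower in the Smad4 line and 2 higher of 11 on day 1 (10.8% of all genes called). On day 2 there were 6 lower and 0 higher of 11 (5.15%), with a median log2 ratio of -1.14, and of these 6 only Ddx4 reached 5 FPKM. The part of differences between lines or clones in the KO counts was not tested.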
